A study of Mus musculus with 12 samples.

Results

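Cholesterol synthesis in the liver was followed through 26 genes of the mevalonate and sterol pathway and of its transcriptional control. The genes were taken by symbol from a table of 25611 genes, and all 26 were found once. They were 4 genes of the SREBP2 control circuit, 6 of the mevalonate steps, 5 of the steps from isoprenoid to lanosterol, 9 of the steps after lanosterol and 2 of sterol transport. Of these, 25 passed a filter on low counts that kept 13190 genes, and the sterol uptake gene Npc1l1 did not.

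RNA-seq was performed on whole livers of 12 male C57BL/6J mice aged 8 to 10 weeks, in 3 groups of 4 mice. Sham mice had an abdominal incision without injury to the cecum, CLP mice underwent cecal ligation and puncture, a model of polymicrobial sepsis, and CLP+DCA mice underwent CLP and received dichloroacetate (DCA), an inhibitor of the pyruvate dehydrogenase kinases, at 25 mg/kg 24 hr post-surgery. All mice were given fluids, and all livers were collected 30 hr post-surgery, 6 hr after DCA. No sham mice given DCA are in the series, and a vehicle injection of the sham and CLP mice is not described in the sources used here.

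Cholesterol is built from acetyl-CoA through mevalonate, isoprenoid diphosphates, squalene and lanosterol, in steps that take place largely at the endoplasmic reticulum (ER) of the hepatocyte. SREBP2, encoded by Srebf2, is the transcription factor known for switching on these genes together. When ER sterol is low, Scap escorts SREBP2 to the Golgi for cleavage, and when sterol is high, the Insig proteins hold Scap and its cargo in the ER.

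Between 24436513 and 44266819 reads were counted on genes per mouse, and the 26 genes took 0.193% to 0.434% of them. Hepatocyte markers were abundant in every mouse, with the exception of Ass1, which had 1 to 33 reads. Summed over 10 hepatocyte markers, the level was 68138 to 87371 CPM (counts scaled to a common library size) in sham, 33462 to 51689 in CLP and 29422 to 62668 in CLP+DCA. Neutrophil markers summed to 6.40 to 9.11 CPM in sham, 30.7 to 41.9 in CLP and 6.54 to 54.5 in CLP+DCA, with Mpo, Camp and Ngp at 0 in at least 1 mouse. By log2 fold change 8 of 10 hepatocyte markers were lower in CLP than in sham and 2 higher. In CLP versus sham edgeR called 1 of 10 hepatocyte markers lower, beside 1.14% of all genes, and 1 of 8 tested neutrophil markers higher, beside 1.64%. DESeq2 on all 12 mice called 2 hepatocyte markers lower, beside 5.92% of all genes, and 5 neutrophil markers higher, beside 7.12%. CLP+DCA replicate 3 stood apart from its group: 30 acute phase genes took 34.1% of its reads, against 14.4% to 19.3% in the other CLP+DCA mice, 20.1% to 34.6% in CLP and 10.6% to 12.1% in sham. It also had the lowest hepatocyte and the highest neutrophil sum of all 12 mice, and the edgeR counts of members in both comparisons of its group are also given without it. The part of cell composition in the results was not tested. In bulk tissue fewer cells of a type and less RNA of its marker genes per cell cannot be told apart.

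To show where control of these genes can be read in the genome, the promoter windows of 4 members are printed, from 250 bases before to 50 bases after the start of transcription in RefSeq (build GRCm38.p6). They belong to Insig2 and Hmgcs1, the 2 members with the highest log2 fold change in CLP versus sham among those with a window, and to Tm7sf2 and Sc5d, the 2 with the lowest. Capitals mark 3 motifs on either strand: the sterol regulatory element TCACNCCAC, at which SREBP2 binds, the NF-Y box CCAAT and the Sp1 box GGGCGG, whose factors are known partners of SREBP2. The windows lie at chr1:121332540-121332839 (Insig2, minus strand), chr13:119690101-119690400 (Hmgcs1, plus strand), chr19:6067801-6068100 (Tm7sf2, minus strand) and chr9:42264251-42264550 (Sc5d, minus strand).
Insig2: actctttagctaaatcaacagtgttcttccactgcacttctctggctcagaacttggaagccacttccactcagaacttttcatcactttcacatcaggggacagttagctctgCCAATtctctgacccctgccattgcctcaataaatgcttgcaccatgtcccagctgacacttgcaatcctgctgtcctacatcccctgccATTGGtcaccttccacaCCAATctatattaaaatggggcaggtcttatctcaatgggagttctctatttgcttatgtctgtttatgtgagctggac
Hmgcs1: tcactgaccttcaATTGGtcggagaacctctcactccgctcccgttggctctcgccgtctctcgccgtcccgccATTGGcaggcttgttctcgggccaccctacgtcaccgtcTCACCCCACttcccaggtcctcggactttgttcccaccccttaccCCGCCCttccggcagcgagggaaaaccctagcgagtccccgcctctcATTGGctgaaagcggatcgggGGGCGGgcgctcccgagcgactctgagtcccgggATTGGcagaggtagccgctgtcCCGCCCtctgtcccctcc
Tm7sf2: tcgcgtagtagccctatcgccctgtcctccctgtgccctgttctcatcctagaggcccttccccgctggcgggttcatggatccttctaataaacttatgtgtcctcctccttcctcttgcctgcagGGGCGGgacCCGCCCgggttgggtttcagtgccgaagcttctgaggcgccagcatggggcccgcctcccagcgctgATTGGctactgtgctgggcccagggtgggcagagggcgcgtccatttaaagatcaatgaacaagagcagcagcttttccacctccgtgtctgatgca
Sc5d: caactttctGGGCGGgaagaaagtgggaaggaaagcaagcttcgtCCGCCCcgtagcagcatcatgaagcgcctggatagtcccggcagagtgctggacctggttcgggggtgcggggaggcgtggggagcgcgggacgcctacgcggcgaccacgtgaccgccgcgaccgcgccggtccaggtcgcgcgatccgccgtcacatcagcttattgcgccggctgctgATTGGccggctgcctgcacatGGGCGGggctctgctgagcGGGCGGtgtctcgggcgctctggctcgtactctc

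A window was listed for 22 of the 26 members, and none for Fdps, Fdft1, Sqle and Stard4. Insig2 and Dhcr7 had 3 windows each and Scap and Pmvk 2 each. Of these only the window nearest the listed start of the gene was read, so the Insig2 window printed is 1 of 3. The set of all windows can thus hold several of the same gene, where each member gave 1. The sterol regulatory element in these exact letters was found in 1 of the 22 windows, that of Hmgcs1, beginning 137 bases before the start, and in 1.24% of all 32851 windows of the same length. The NF-Y box was found in 19 of the 22 windows and in 37.4% of all windows. The Sp1 box was found in 18 of the 22 and in 35.7% of all. Insig2 had 3 NF-Y boxes and no Sp1 box, Hmgcs1 had 4 and 3, Tm7sf2 had 1 and 2, and Sc5d had 1 and 4. A match describes these letters only, and says nothing of whether a factor was bound. The lack of a match covers only these exact letters in the window read, and does not mean that a gene has no such element.

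The first comparison, CLP versus sham, asked how sepsis changed the pathway. The SREBP2 gene itself rose, and Sc5d, which introduces a double bond into the sterol ring late in the pathway, fell. These were the only members that passed the test, edgeR's quasi-likelihood test at a Benjamini-Hochberg false discovery rate (FDR) of 0.05 over all genes. By fitted log2 fold change 17 of 25 members were higher in CLP and 8 lower, with a median of 0.36 against 0.02 over all 13190 genes. Without CLP replicate 2 the median was 0.23. The call of Srebf2, 1 of 25 members higher, stands beside a background of 1.64% of all genes called higher, and that of Sc5d beside 1.14% called lower.

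Srebf2 (chromosome 15, 82147269 to 82204960, plus strand, mm10) was at 55.9, 62.1, 57.0 and 57.5 CPM in the sham mice, at 95.8, 101, 77.7 and 97.1 in CLP and at 70.01, 58.9, 78.6 and 71.0 in CLP+DCA. The 4 CLP mice lay above every sham mouse, and the CLP+DCA mice lay between and overlapped both groups. The mean was 58.1 ± 2.71 CPM in sham and 93.0 ± 10.5 in CLP (SD, n = 4 each). The log2 fold change was 0.68 (SE 0.11, edgeR adjusted p = 0.0202).

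Sc5d (chromosome 9, 42254177 to 42264300, minus strand) was at 498, 450.0, 502 and 499 CPM in sham, at 328, 288, 269.9 and 254 in CLP and at 274, 209, 234 and 285 in CLP+DCA. Both CLP groups lay below every sham mouse and overlapped each other. The mean was 487 ± 24.9 CPM in sham and 285 ± 31.8 in CLP (SD, n = 4 each), and the log2 fold change was -0.77 (SE 0.13, edgeR adjusted p = 0.0253). Neither call of this comparison held when any of the 4 sham mice, CLP replicate 2 or CLP replicate 4 was left out, with adjusted p values up to 0.0830, while the log2 fold changes stayed between 0.63 and 0.76 for Srebf2 and between -0.85 and -0.72 for Sc5d.

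**Figure D1:**
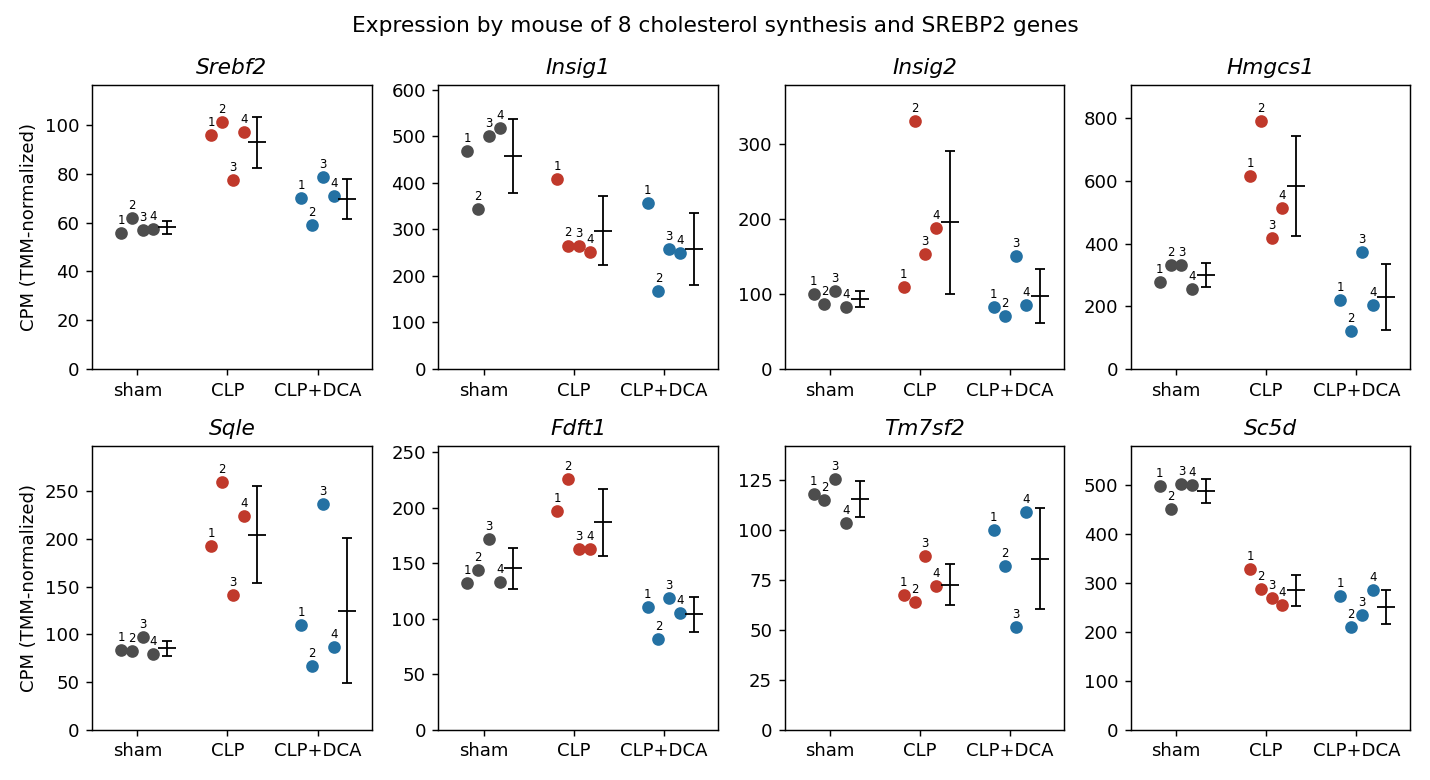
Expression of 8 members in every mouse, in CPM on TMM-normalized library sizes (vertical axes, linear and starting at 0), for the 4 sham, 4 CLP and 4 CLP+DCA mice. Points are mice with their replicate number, and the bar beside each group is the mean ± SD. Srebf2 is higher and Sc5d lower in all 4 CLP mice than in any sham mouse, and Hmgcs1 and Fdft1 are lower in all 4 CLP+DCA mice than in any CLP mouse.

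The other genes of the control circuit did not move as 1 block. Insig2 was at 101, 86.3, 104 and 82.8 CPM in sham, at 109.6, 331, 154 and 188 in CLP and at 83.1, 70.7, 151 and 85.6 in CLP+DCA. All CLP mice were above sham, by little in replicate 1 and by most in replicate 2, and the log2 fold change was 1.06 (SE 0.32, edgeR adjusted p = 0.0756). Insig1, which in the liver is known as a target of SREBP2, stood the other way, at 468, 343, 501 and 517 CPM in sham, at 408, 265, 265 and 250.1 in CLP and at 356, 168, 257 and 249 in CLP+DCA. CLP replicate 1 overlapped with sham, and the log2 fold change of Insig1 was -0.62 (SE 0.24, edgeR adjusted p = 0.117). Scap, the escort, had a mean of 139 ± 8.49 CPM in sham, of 119.8 ± 10.8 in CLP and of 109.6 ± 20.9 in CLP+DCA (SD, n = 4 each), with overlapping groups.

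Of the 6 mevalonate genes, 4 were higher in CLP and 2 lower, and none was called. Hmgcs1, the cytosolic HMG-CoA synthase whose promoter is printed above, was at 276, 331, 331 and 255 CPM in sham, at 614, 790.3, 418 and 512 in CLP and at 219, 121, 373 and 204 in CLP+DCA. All CLP mice were above all sham mice, and the log2 fold change was 0.97 (SE 0.30, edgeR adjusted p = 0.0765). Idi1, which makes the allylic isoprenoid unit, was at 42.7 to 58.3 CPM in sham and 61.4 to 88.6 in CLP, again without overlap (log2 fold change 0.54, SE 0.26). The log2 fold change was 0.45 for the mevalonate kinase Mvk and 0.68 for the decarboxylase Mvd, and the groups overlapped for both. Mvd was at 22.0, 21.8, 28.5 and 20.1 CPM in sham, at 41.1, 51.2, 23.6 and 32.3 in CLP and at 23.0, 11.4, 26.8 and 12.4 in CLP+DCA, and CLP replicate 3 was the mouse that lay within the sham range. The log2 fold change was -0.41 for Pmvk, the phosphomevalonate kinase between these steps, and -0.25 for Acat2, the thiolase that opens the pathway.

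From isoprenoids to lanosterol all 5 genes had a positive fold change, with none called. Sqle, the squalene epoxidase and a known control point of the pathway, had the largest log2 fold change of the members, 1.26 (SE 0.34, edgeR adjusted p = 0.0630). It was at 83.4, 82.4, 96.9 and 78.8 CPM in sham, at 193, 260.1, 141 and 224 in CLP and at 110.0, 66.8, 236 and 86.3 in CLP+DCA. Every CLP mouse was above every sham mouse, and CLP+DCA replicate 3 lay among the CLP mice. Fdft1, the squalene synthase, had a log2 fold change of 0.36, Lss, the lanosterol synthase, 0.47, Fdps, the farnesyl diphosphate synthase, 0.28, and Ggps1, which leads to protein prenylation instead of sterols, 0.01. In Fdps the sham mice were at 333, 315, 367 and 278 CPM, the CLP mice at 356, 579.8, 277 and 362 and the CLP+DCA mice at 189.9, 119, 328 and 153. In Lss they were at 68.5, 66.3, 83.8 and 70.6 CPM, at 102, 146, 61.3 and 91.4 and at 49.5, 33.8, 86.0 and 44.2. In both genes CLP replicate 2 was the highest and CLP+DCA replicate 2 the lowest of the 12 mice, and CLP replicate 3 was the lowest CLP mouse, just below the sham range in Fdps and further below it in Lss. Sham and CLP overlapped in all 4 of these genes.

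After lanosterol 6 of 9 genes had a positive log2 fold change in CLP and 3 a negative one. Without overlap 3 were higher and 3 lower (33.3% each), beside 12.2% and 14.2% of all genes, and only Sc5d was called. Cyp51, the lanosterol demethylase, Msmo1 and Hsd17b7, both of the removal of the sterol methyl groups, were higher in every CLP mouse than in any sham mouse. Hsd17b7 was at 64.1, 70.3, 73.3 and 56.8 CPM in sham, at 104, 176, 93.0 and 113 in CLP and at 60.8, 39.9, 119 and 68.5 in CLP+DCA, where replicate 3 lay with the CLP mice, replicates 1 and 4 within the sham range and replicate 2 below it. Cyp51 was at 223, 263, 271 and 205 CPM in sham, at 312, 408, 292 and 317 in CLP and at 190.4, 131, 287 and 191 in CLP+DCA, with replicate 2 the lowest mouse of all. The log2 fold changes in CLP were 0.47 for Cyp51, 0.64 for Msmo1 and 0.88 for Hsd17b7 (edgeR adjusted p = 0.170, 0.0930 and 0.0909). Tm7sf2, a sterol reductase, and Ebp, the sterol isomerase, were lower in every CLP mouse, as was Sc5d above. Tm7sf2 was at 118, 115, 125 and 103 CPM in sham, at 67.1, 63.8, 87.1 and 71.9 in CLP and at 99.9, 81.9, 51.5 and 109 in CLP+DCA. Its CLP mice lay apart from sham, whereas CLP+DCA replicate 3 was the lowest of all 12 mice, and the log2 fold change in CLP was -0.67 (SE 0.20, edgeR adjusted p = 0.0722). Ebp was at 198 to 224 CPM in sham and 158 to 166 in CLP (log2 fold change -0.42, SE 0.16). Lbr, the other reductase of the same step and also a protein of the nuclear envelope, Nsdhl and Dhcr7 overlapped between the groups, with log2 fold changes of 0.09, 0.07 and 0.49.

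For transport, Stard4, a cytosolic sterol carrier, was at 147 ± 15.5 CPM in sham and 115 ± 12.3 in CLP (SD, n = 4 each), lower without overlap (log2 fold change -0.36, edgeR adjusted p = 0.137). The groups nearly met, with sham replicate 1 at 133.6 CPM and CLP replicate 1 at 132.9. Npc1l1, which takes up sterol in the intestine, had 0 to 3 reads per mouse, and the exact permutation test on log2 CPM gave p = 1 in all 3 comparisons (two-sided, smallest possible p 0.0286).

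In all, 8 of 25 members were higher in CLP without overlap (Srebf2, Insig2, Hmgcs1, Idi1, Sqle, Cyp51, Msmo1 and Hsd17b7), or 32% beside 12.2% of all genes. A further 4 were lower without overlap (Tm7sf2, Ebp, Sc5d and Stard4), or 16% beside 14.2% of all genes, which is close to the background. The number called turned on the model. DESeq2 on the 8 sham and CLP mice called 14 members, 9 higher and 5 lower, where it called 23.3% of all genes, and edgeR without CLP+DCA replicate 3 called 10, 7 higher, where it called 23.8%. With library size alone, which moved the median of all genes to -0.15, the members without overlap were 5 higher and 7 lower, beside 7.37% and 20.7% of all genes, and the signs of Ggps1, Lbr and Nsdhl turned.

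**Figure D2:**
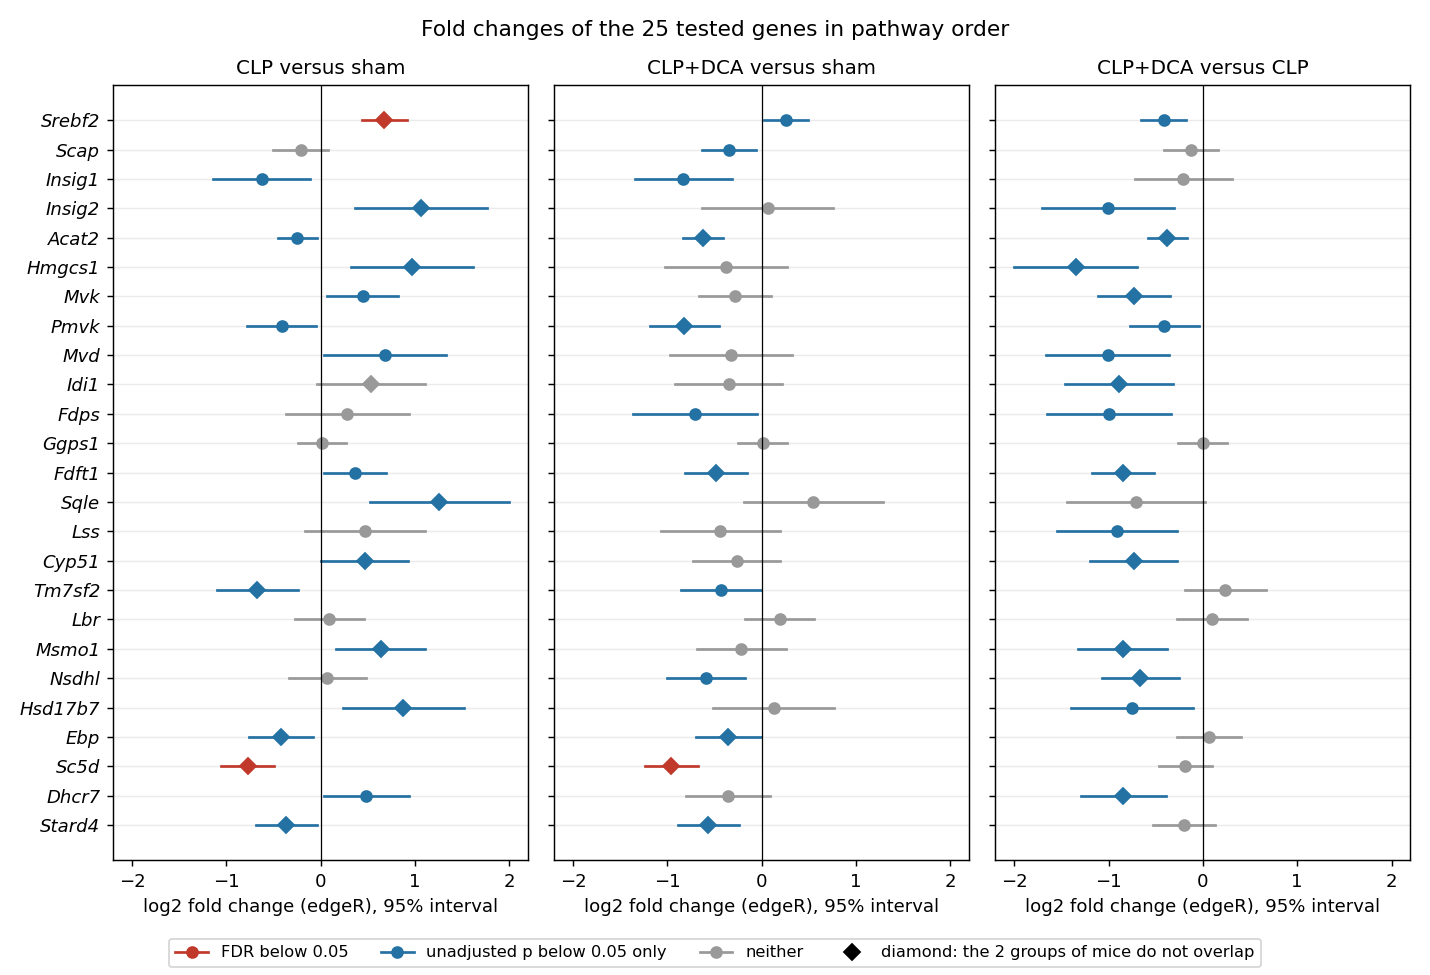
Log2 fold changes (horizontal axes) of the 25 tested members in pathway order in each of the 3 comparisons, with 95% intervals from the edgeR fit of all 12 mice. Colours give the call and diamonds mark members whose 2 groups of 4 mice do not overlap. In CLP versus sham 17 of 25 estimates lie right of 0, and in CLP+DCA versus CLP 22 of 25 lie left of it.

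The second comparison, CLP+DCA versus CLP, asked what DCA given during sepsis did to the pathway. Here 22 of 25 members were lower in CLP+DCA and 3 higher (Tm7sf2, Lbr and Ebp, by at most 0.24), with a median log2 fold change of -0.71 against 0.01 over all genes. No member passed the FDR in edgeR, where 0% of all genes were called lower and 0.00758%, a single gene of 13190, was called higher. At an unadjusted p under 0.05, 16 of 25 members (64%) were lower beside 4.94% of all genes, and 0 were higher. In 9 of 25 (36%) every CLP+DCA mouse was below every CLP mouse, beside 2.05% of all genes. These 9 were Acat2, Hmgcs1, Mvk, Idi1, Fdft1, Cyp51, Msmo1, Nsdhl and Dhcr7.

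All 6 mevalonate genes were lower at an unadjusted p under 0.05, beside 4.94% of all genes, and none passed the FDR. Of them 4 were lower without overlap, beside 2.05% of all genes. Hmgcs1 was at 584 ± 159 CPM in CLP and at 229 ± 105 in CLP+DCA (SD, n = 4 each), and its 4 CLP+DCA mice, given above, lay below the 4 CLP mice. Its log2 fold change of -1.35 (SE 0.30, edgeR adjusted p = 0.178) was the lowest of the members. Mvk was at 41.0, 45.3, 32.2 and 33.1 CPM in CLP and at 27.0, 19.2, 19.0 and 26.3 in CLP+DCA, without overlap (log2 fold change -0.73, SE 0.17). Idi1 was at 75.0 ± 11.5 CPM in CLP and 40.4 ± 16.2 in CLP+DCA (SD, n = 4 each, log2 fold change -0.89). Mvd had a log2 fold change of -1.01 and Pmvk of -0.41, both with overlap, and Acat2 had -0.38 without overlap.

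Fdft1, the enzyme that commits farnesyl diphosphate to squalene, had the smallest p of the members. It was at 132, 144, 171 and 133 CPM in sham, at 197, 226, 163 and 163 in CLP and at 110.2, 82.0, 119 and 105 in CLP+DCA. The CLP+DCA mice lay below all CLP mice and below all sham mice, and the log2 fold change against CLP was -0.85 (SE 0.15, edgeR adjusted p = 0.122). Reads of Fdft1 are uncertain in part, because 20.9% of its exon bases lie opposite to exons of Ctsb and the library kit does not keep strand. Fdps had a log2 fold change of -0.99 and Lss of -0.91, both with overlap, since replicate 3 lay among the CLP mice. Sqle had -0.71 and Ggps1 -0.00.

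After lanosterol, Msmo1 was at 329, 411, 273 and 289.6 CPM in CLP and at 202, 107, 238 and 176 in CLP+DCA, and Dhcr7, the reductase of the last step of 1 branch, at 124, 204, 107 and 155 in CLP and at 86.3, 57.8, 100.5 and 84.1 in CLP+DCA. Neither overlapped, and the log2 fold changes were -0.85 (SE 0.22) and -0.84 (SE 0.21). Nsdhl, a dehydrogenase of the methyl group removal, was at 93.4, 131, 94.8 and 89.3 CPM in CLP and at 74.8, 44.7, 69.1 and 69.2 in CLP+DCA. It was also without overlap, as was Cyp51, and their log2 fold changes were -0.66 and -0.73. Sc5d, low in both CLP groups, had a log2 fold change of -0.19 (95% interval -0.46 to 0.09), and Ebp one of 0.07 (-0.28 to 0.41). Of the control genes, Srebf2 had -0.42 (SE 0.11, edgeR adjusted p = 0.255), Insig1 -0.21 and Scap -0.13. Insig2 was at 196 ± 96.0 CPM in CLP and 97.6 ± 36.3 in CLP+DCA (SD, n = 4 each, edgeR adjusted p = 0.375). The carrier Stard4 had -0.20.

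**Figure D3:**
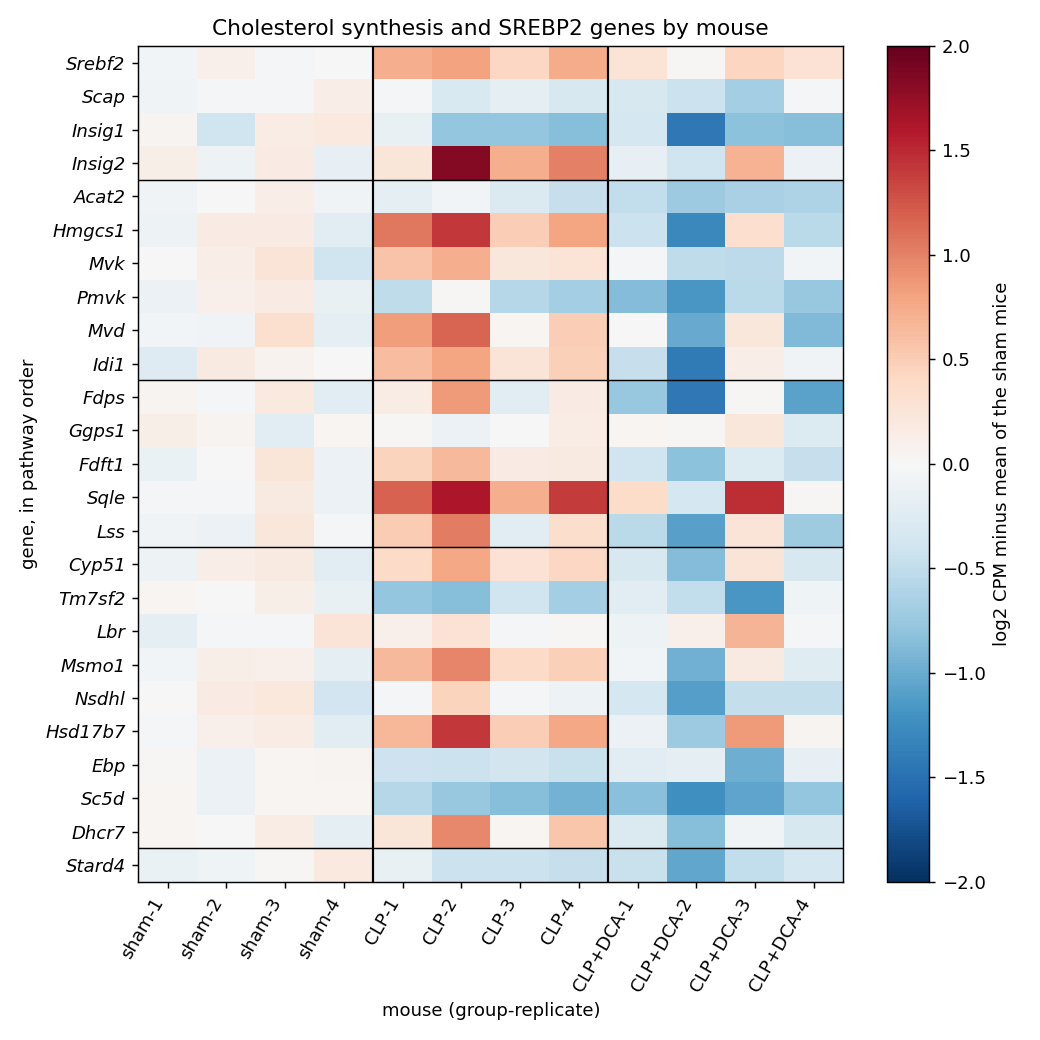
Log2 CPM less the mean of the 4 sham mice (colour scale) for the 25 tested members in pathway order (vertical axis) in each of the 12 mice (horizontal axis). Lines part the groups and the pathway sections. CLP+DCA replicate 2 is the bluest column and CLP replicate 2 the reddest, and Sc5d is blue in all 8 CLP and CLP+DCA mice.

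Single mice were high or low in many members at once. CLP replicate 2 was the highest of its group in 18 of 25 members, beside 30.3% of all genes, and CLP replicate 3 the lowest in 14, beside 28.1%. CLP+DCA replicate 2 was the lowest of its group in 19 of 25, beside 21.1% of all genes, and replicate 3 the highest in 16, beside 39.2%. Over the 25 members, the mean log2 difference from sham was 0.22, 0.48, -0.00 and 0.13 for CLP replicates 1 to 4 and -0.28, -0.77, -0.08 and -0.35 for CLP+DCA replicates 1 to 4, so that these groups did not overlap in this mean. In the median difference over the same members they did overlap. There CLP+DCA replicate 3, at 0.03, lay above CLP replicate 3, at 0.01. The median log2 fold change of CLP+DCA versus CLP was -0.52 without CLP replicate 2 and -0.54 without CLP+DCA replicate 2.

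**Figure D4:**
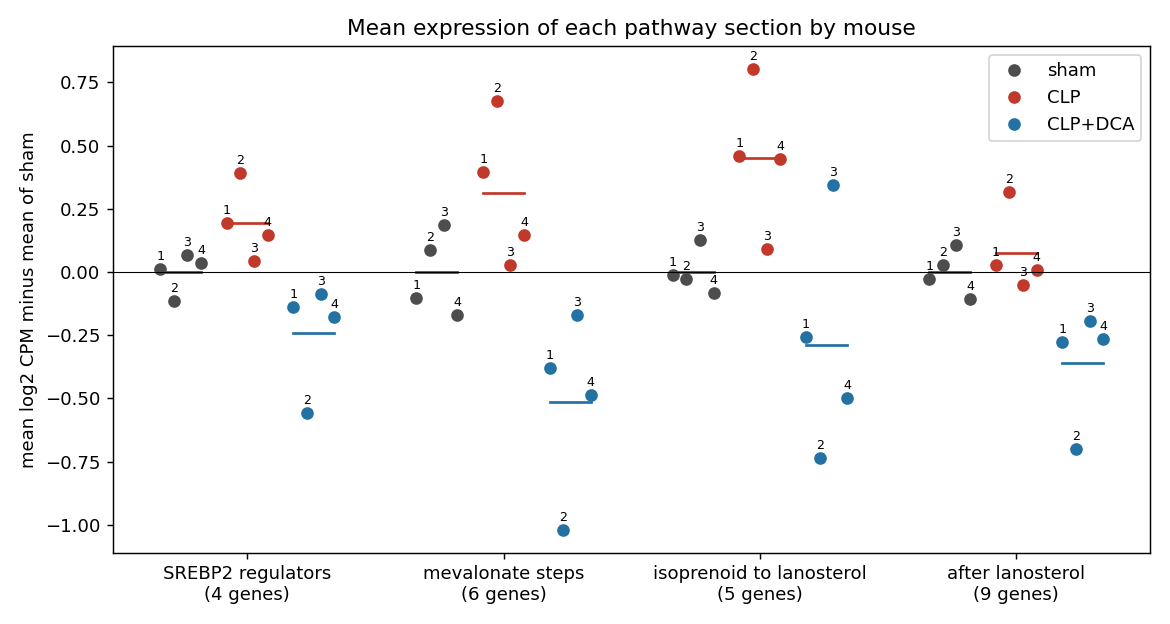
Mean log2 CPM less the mean of the 4 sham mice (vertical axis) over the genes of each pathway section, with 1 point per mouse labelled by its replicate and a line at the mean of the group. In the mevalonate section the 4 CLP+DCA mice lie between -1.02 and -0.17 and the 4 CLP mice between 0.03 and 0.68, and CLP+DCA replicate 3 stands apart in the section from isoprenoid to lanosterol, at 0.34.

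Leaving out CLP+DCA replicate 3 changed the number of calls in CLP+DCA versus CLP, and leaving out any other single mouse left it at 0. Without it, edgeR called 13 members in CLP+DCA versus CLP, all of them lower: Srebf2, Insig2, Hmgcs1, Mvd, Idi1, Fdps, Fdft1, Sqle, Lss, Cyp51, Msmo1, Hsd17b7 and Dhcr7. The background was then 2.63% of all genes called lower. By sign 23 members were then lower and 2 higher. Without overlap 17 were lower, beside 10.3% of all genes. At an unadjusted p under 0.05, 17 were lower, beside 14.5% of all genes, and 2 higher, beside 13.7%, so that the background had risen more than the members' count. The median log2 fold change was -0.70. With all 12 mice DESeq2 called 7 members, all lower (Srebf2, Acat2, Hmgcs1, Mvk, Fdft1, Msmo1 and Dhcr7), beside 0.377% of all genes, and on the 8 mice of the 2 groups it called 3 (Hmgcs1, Mvk and Fdft1), beside 0.295%. The edgeR fit of these 8 mice called 0.

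The third comparison, CLP+DCA versus sham, shares its mice with the other comparisons and sets the treated septic livers beside the uninjured ones. Of 25 members 6 were higher and 19 lower, with a median log2 fold change of -0.35 against 0.01 over all genes. Sc5d was the only member called, and also the only gene called lower among all 13190 (0.00758%). It went from 487 ± 24.9 CPM in sham to 251 ± 35.4 in CLP+DCA (SD, n = 4 each), and its log2 fold change was -0.96 (SE 0.13, edgeR adjusted p = 0.0282). The call was lost, with adjusted p between 0.0533 and 0.128, when any sham mouse, CLP replicate 1, 3 or 4, or CLP+DCA replicate 1 or 2 was left out.

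In 6 members (24%) all CLP+DCA mice lay below all sham mice, beside 4.97% of all genes: Acat2, Pmvk, Fdft1, Ebp, Sc5d and Stard4. None was higher without overlap, beside 4.78% of all genes. Without CLP+DCA replicate 3, 23 members were lower and 2 higher, with a median log2 fold change of -0.49. The members lower without overlap were then 11, beside 6.45% of all genes, with Hmgcs1, Fdps, Lss, Cyp51 and Dhcr7 added, and none was higher, beside 6.8%. Sc5d was still the only member called, beside 0.0151% of all genes called lower. Without CLP+DCA replicate 2 the median was -0.22, and without sham replicate 4 the members lower without overlap were 10, beside 7.49% of all genes. Acat2 was at 59.3, 62.4, 68.3 and 58.9 CPM in sham, at 54.1, 59.8, 50.7 and 45.3 in CLP and at 44.0, 37.6, 39.5 and 40.4 in CLP+DCA. The CLP+DCA mice lay below all others, with a log2 fold change against sham of -0.62 (SE 0.10, edgeR adjusted p = 0.0577). Reads may be shared between Acat2 and its neighbouring copy Acat3, so that its level is less certain. Pmvk was at 44.3, 51.3, 53.5 and 43.3 CPM in sham, at 33.7, 48.9, 32.2 and 29.8 in CLP and at 26.3, 21.3, 32.8 and 28.2 in CLP+DCA. The treated mice lay below sham and overlapped with CLP (log2 fold change against sham -0.82, edgeR adjusted p = 0.153). Stard4 was at 134, 139, 149 and 169 CPM in sham and at 108, 71.2, 105 and 115 in CLP+DCA, all lower (log2 fold change -0.56, edgeR adjusted p = 0.230). Srebf2 had a log2 fold change of 0.26 and Sqle of 0.55, while Insig1 had -0.83 (edgeR adjusted p = 0.259). DESeq2 on all 12 mice called 5 members lower, Insig1, Acat2, Pmvk, Sc5d and Stard4, beside 0.586% of all genes.

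Neighbouring gene lists were read in the same fit. The list of SREBP processing and turnover has 14 genes, of which 13 were tested, and in CLP versus sham 6 were higher and 7 lower (median log2 fold change -0.01). The only one called by edgeR, beside 1.14% of all genes called lower, was Srebf1, which encodes SREBP1, the regulator of fatty acid synthesis. It was at 346, 337, 356 and 305 CPM in sham, at 140.3, 45.2, 90.8 and 73.9 in CLP and at 266, 189, 51.3 and 256 in CLP+DCA. All CLP mice lay below sham, and of the CLP+DCA mice only replicate 3 lay among them. The log2 fold change in CLP was -1.94 (SE 0.45, edgeR adjusted p = 0.0475), opposite in sign to that of Srebf2 in the same livers. Against CLP, Srebf1 had 1.12 in CLP+DCA (SE 0.44, edgeR adjusted p = 0.437), where Srebf2 had -0.42. DESeq2 on all 12 mice called 1 gene of this list higher and 2 lower in CLP versus sham, beside 7.12% and 5.92% of all genes.

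Of 10 genes of fatty acid synthesis under SREBP1, 9 were lower in CLP (median log2 fold change -0.46). DESeq2 on all 12 mice called 3 of them lower, beside 5.92% of all genes. With edgeR 1 was called lower, beside 1.14%, the desaturase gene Scd1, with a log2 fold change of -2.68 (SE 0.49, edgeR adjusted p = 0.0275). Scd1 was at 1525 to 3565 CPM in sham, 138 to 663 in CLP and 580.0 to 828 in CLP+DCA. Of 17 tested genes of sterol efflux, esterification and uptake control, 9 were higher and 8 lower in CLP (median 0.04). Of these, edgeR called 1 higher and 1 lower, beside 1.64% and 1.14% of all genes, and DESeq2 on all 12 mice called 2 and 1, beside 7.12% and 5.92%. Abcg8, part of the transporter that moves sterol into bile, fell from 87.6 ± 13.1 CPM in sham to 55.7 ± 3.39 in CLP (SD, n = 4 each, log2 fold change -0.65, edgeR adjusted p = 0.0294). Mylip, a ubiquitin ligase that marks lipoprotein receptors for degradation, rose from 4.15 ± 0.287 to 8.24 ± 2.08 CPM (SD, n = 4 each, log2 fold change 0.99, edgeR adjusted p = 0.0403).

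Of 14 genes of the isoprenoid branch, which feeds dolichol, ubiquinone and protein prenylation, 9 were higher and 5 lower in CLP (median 0.03). None was called by edgeR, 2 were higher at an unadjusted p under 0.05, beside 15.5% of all genes, and DESeq2 on all 12 mice called 1 higher, beside 7.12%. These shares are close to the background. The 2 with the smallest p were Fntb, of the farnesyl transferase, and Nus1, of dolichol synthesis, with log2 fold changes of 0.54 and 0.47 (edgeR adjusted p = 0.0700 and 0.0972). In CLP+DCA versus CLP the median log2 fold change of this branch was -0.04, against -0.71 for the sterol genes.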

How the data were processed

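Livers of 12 mice, 4 per group, were sequenced once. The authors prepared poly(A)-enriched libraries with an unstranded TruSeq v2 kit, aligned paired reads to mm10 (STAR 2.5) and made gene counts with featureCounts (Subread 1.5.0-p1). The annotation and strand setting are not given in the sources used here. They deposited unnormalized counts. Totals of 24436513 to 44266819 counts per mouse limit the precision, and the SD between mice includes the counting error.

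Counts were analysed in R 4.3.3 with edgeR 4.0.16. Genes were filtered with filterByExpr (minimum count 10), normalized by TMM and fitted with robust quasi-likelihood over all 12 mice, at an FDR of 0.05 over 13190 genes. Standard errors are the log2 fold change over the square root of F. CPM use library sizes scaled by TMM, with a prior count of 2 on the log2 scale. Groups do not overlap where the lowest mouse of 1 group lies above the highest of the other. DESeq2 1.42.0 (its missing adjusted p values stayed missing), other normalizations and filters, a replicate block and leaving out each mouse were alternatives; the counts without overlap under library size alone and without each mouse were chosen after seeing the data. The fits were tested on simulated counts. Replicates of equal number are not stated to share a litter or day. The correlation of their deviations from the group means ran from -0.46 to 0.55. Between mice of unlike number in different groups it ran from -0.61 to 0.70.

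Members and lists were chosen with earlier results of these data known. Named were all members, called genes of the other lists (otherwise the 2 with the smallest p in CLP versus sham), and the promoters with the 2 highest and 2 lowest log2 fold changes in CLP versus sham, leaving out chromosome 18. Exon overlaps were read from GENCODE vM21, and level per length is CPM per kb of merged exons.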

Additional observations from a re-analysis of the deposited data

Results flagged for a closer look

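In each group of 4 mice, a mouse stood out where its gap to the nearest of the others exceeded the share of the range of the group that Dixon's test allows at 95%. This was so in 7 of 75 groups (25 members in 3 groups of mice), where chance alone gives about 1 in 20 groups. The 75 groups come from the same 12 mice and are not independent, so the 7 cannot be tested against this rate. All values are log2 CPM. Insig1 was high in CLP replicate 1, at 8.67, against 7.97 to 8.05 in the other CLP mice. Stard4 was high in the same mouse, at 7.05, against 6.74 to 6.77. Nsdhl was high in CLP replicate 2, at 7.03, against 6.48 to 6.57, and low in CLP+DCA replicate 2, at 5.48, against 6.11 to 6.23. Ebp was low in CLP+DCA replicate 3, at 6.77, against 7.53 to 7.58, and in sham replicate 2, at 7.63, against 7.78 to 7.81. Sc5d was low in sham replicate 2, at 8.81, against 8.96 to 8.97, and lay above every CLP mouse there too.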

How the results depend on the processing

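The median log2 fold changes of the members kept their direction under every alternative run. Their size moved: in CLP versus sham from 0.36 to 0.18 with library size alone and to 0.23 to 0.45 without 1 mouse, lowest without CLP replicate 2, and in CLP+DCA versus sham from -0.35 to between -0.49 and -0.22 without 1 mouse. The numbers of calls moved, and the cause was not tested. In CLP versus sham 367 of all genes (216 higher) and 2 members were called. With edgeR on the 8 mice compared these were 2387 and 11, with DESeq2 on those mice 3428 and 14, with DESeq2 on all 12 mice 1894 and 8, with library size alone 209 genes (100 higher), and without a filter 122 genes. Leaving out 1 mouse gave 10 to 3157 genes and 0 to 10 members. In CLP+DCA versus CLP 1 gene and 0 members were called. Here edgeR on 8 mice called 0 genes, DESeq2 80 genes and 3 members on 8 mice and 136 and 7 on all, and leaving out 1 mouse gave 0 to 616 genes and 0 to 13 members. In CLP+DCA versus sham 5 genes and 1 member were called. Here edgeR on 8 mice called 0 of both, DESeq2 169 and 3 on 8 mice and 247 and 5 on all, library size alone 3 and 0, and leaving out 1 mouse gave 1 to 11 genes and 0 to 2 members.

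Members without overlap in CLP versus sham were 8 higher and 4 lower, beside 12.2% and 14.2% of all genes. With library size alone they were 5 and 7, beside 7.37% and 20.7%. Without 1 mouse they were 8 to 12 higher, beside 12.2% to 18.8% of all genes, and 3 to 6 lower, beside 13.2% to 19.8%. In CLP+DCA versus CLP 9 were lower without overlap, beside 2.05% of all genes. Leaving out 1 mouse gave 9 to 17, beside 2.03% to 10.3%, with the 17 in the run at 10.3%. At an unadjusted p under 0.05, 16 were lower, beside 4.94%, and 14 to 17 without 1 mouse, beside 3.62% to 14.5%. In CLP+DCA versus sham 6 were lower without overlap, beside 4.97% of all genes. Leaving out 1 mouse gave 6 to 11, beside 4.95% to 9.99%.

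With the replicate number as a block, 46, 4 and 0 genes were called in CLP versus sham, CLP+DCA versus CLP and CLP+DCA versus sham, and 0 members in each. The equal numbers are no pairing by design.

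No called member changed sign. Ggps1, Lbr, Nsdhl, Insig2, Hsd17b7 and Ebp, none called where it happened, did under at least 1 alternative. With 4 mice a group, single calls rest on single mice, and reads of overlapping genes cannot be told apart.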

Other observations

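Per kb of exon, the highest sham levels of the members were those of Fdps at 222 CPM per kb, Insig1 at 170, Ebp at 124, Msmo1 at 103 and Sc5d at 100.2. The lowest were those of Lbr at 3.14, Ggps1 at 2.26 and Npc1l1 at 0.00292. In CLP the order of the highest was Fdps at 271, Hmgcs1 at 168 and Msmo1 at 159 CPM per kb, and in CLP+DCA it was Fdps at 136, Ebp at 97.0 and Insig1 at 95.4. Neighbours in these orders were not tested against each other. The level of Fdps is uncertain, since 77.4% of its exon bases are shared on the same strand with Gm43738, which is not in the count table.

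Markers of other liver cells were summed in the same way. Over 10 Kupffer cell and macrophage markers the level was 172 to 303 CPM in sham, 281 to 359 in CLP and 224 to 419 in CLP+DCA. Over 10 endothelial markers it was 145 to 195, 180 to 230 and 146 to 208 CPM. Over 10 stellate cell and cholangiocyte markers it was 39.4 to 54.7, 68.6 to 304 and 43.4 to 153 CPM, and over the 8 lymphocyte markers found it was 1.81 to 3.83, 0.449 to 1.40 and 0.704 to 2.43 CPM. Their part in the results for the sterol genes was not tested.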
